A study of Mus musculus with 8 samples.

Results

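The genes described here encode the enzymes of the citrate cycle and of the reactions that feed it or draw on it, in mouse nephron progenitors, the stem-like cells of the embryonic kidney, with 0 or 1 intact Vhl allele by their labels. The 32 genes were taken by name from the 20254 genes of the deposited expression table. They comprise 26 genes of mitochondrial enzymes and 6 of cytosolic ones. RNA sequencing of polyadenylated transcripts was performed on 4 libraries of mutant cells (genotype VHLNP-/-, mutants 1 to 4) and 4 libraries of control cells (genotype VHLNP+/-, controls 1 to 4). Both groups came from kidneys of Six2EGFPcre embryos at embryonic day 17.5 and were sorted by GFP. In both groups the strain carries a green fluorescent Cre recombinase driven by Six2, a transcription factor of nephron progenitors, and the controls are heterozygous rather than wild type. Whether each library came from its own embryo or litter is not in the labels, so each p-value reflects only the variation among these libraries, part of which may be technical. By its title, the study asks how Vhl bears on the metabolism and differentiation of these progenitors.

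Reads assigned to genes numbered 37252683 to 46515762 per library. Vhl was at 285 to 336 normalised reads in mutants and 1134 to 1379 in controls. All 8 nephron progenitor markers, Six2 and Cited1 among them, were detected. By limma at an adjusted p under 0.05, 1 rose (Gdnf) and 3 fell (Meox1, Osr1 and Tmem100). Of all genes tested, 5.4% were called higher and 3.03% lower. The summed level of the 8 markers was 66072 to 75072 normalised reads in mutants and 66024 to 75200 in controls. The largest values in that sum were those of Six2, Eya1 and Crym, which were not called. Mutant 2 (51.9 normalised reads of Xist) and control 2 (8.84) carried almost no Xist, the RNA that silences an X chromosome in female cells, against 60017 or more in the other libraries. Control 3 correlated with mutant 2 at 0.986, slightly above its correlations with the other controls (at most 0.985), whereas mutant 2 correlated best with other mutants (up to 0.992). A normalised read is a read divided by the library's size factor, and levels between genes are compared below only per kilobase of exon. A log2 fold change here is the mutant mean less the control mean of log2(normalised reads + 1).

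The citrate cycle oxidises acetyl-CoA in the mitochondrial matrix and passes the electrons to the respiratory chain. Acetyl-CoA enters from pyruvate through the pyruvate dehydrogenase complex, and citrate synthase joins it to oxaloacetate. Anaplerotic reactions refill the cycle from pyruvate, aspartate and glutamate, while malic enzyme draws malate from it. Several steps have a second enzyme in the cytosol that exchanges carbon and reducing equivalents with the matrix. Vhl marks hypoxia-inducible factor for degradation, and that factor is known for shifting pyruvate away from this cycle through the kinase Pdk1.

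Few of these genes passed the test, and the changes were small. Me2, the gene of mitochondrial malic enzyme, rose 1.29-fold, Idh2 (mitochondrial NADP isocitrate dehydrogenase) fell by 17.8% and Cs (citrate synthase) fell by 16.6%. By limma, with an adjusted p under 0.05 as the threshold, the calls among the 32 members were thus 1 higher and 2 lower, and 29 members had none. Across the 15381 genes tested, 8.43% were called, 5.4% higher and 3.03% lower. The members called lower were 6.25% of the 32, and both shares rest on very few genes. All 32 members passed the filter on low values. In bulk RNA, fewer cells of a type and less RNA per cell cannot be told apart.

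The direction was shared more widely than the calls. Of the 32 members, 26 had a log2 fold change below 0 (81.2%), where 51.5% of all tested genes did. The median was -0.13 for the members, -0.01 for all genes tested and -0.02 for the 7718 genes with a mean of at least 1000 normalised reads. With the unadjusted p under 0.05, 15 members lay lower (46.9%) and 1 higher, against 23.3% of all tested genes in either direction, 11.2% lower and 12.0% higher. Among the genes with a mean of at least 1000, 13.7% lay lower by that measure and 3.41% were called lower after adjustment. The authors' deposited table, at an adjusted p under 0.05, has lower values for 9 members and a higher one for 1, where it calls 12.5% of its 15144 genes, 5.35% lower and 7.12% higher. The 9 were Cs, Idh2, Idh3a, Idh3g, Sdha, Sdhb, Fh1, Mdh2 and Pdha1, and the 1 was Me2. Weighting libraries by their estimated quality called 15 members lower, against 8.93% of all genes lower and 19.5% in either direction, and a block for the replicate numbers called 0 lower, against 1.4% lower and 4.98% in either direction. The members' fold changes, mutant over control, ran from 0.814 for Sdhb to 1.29 for Me2.

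**Figure D1:**
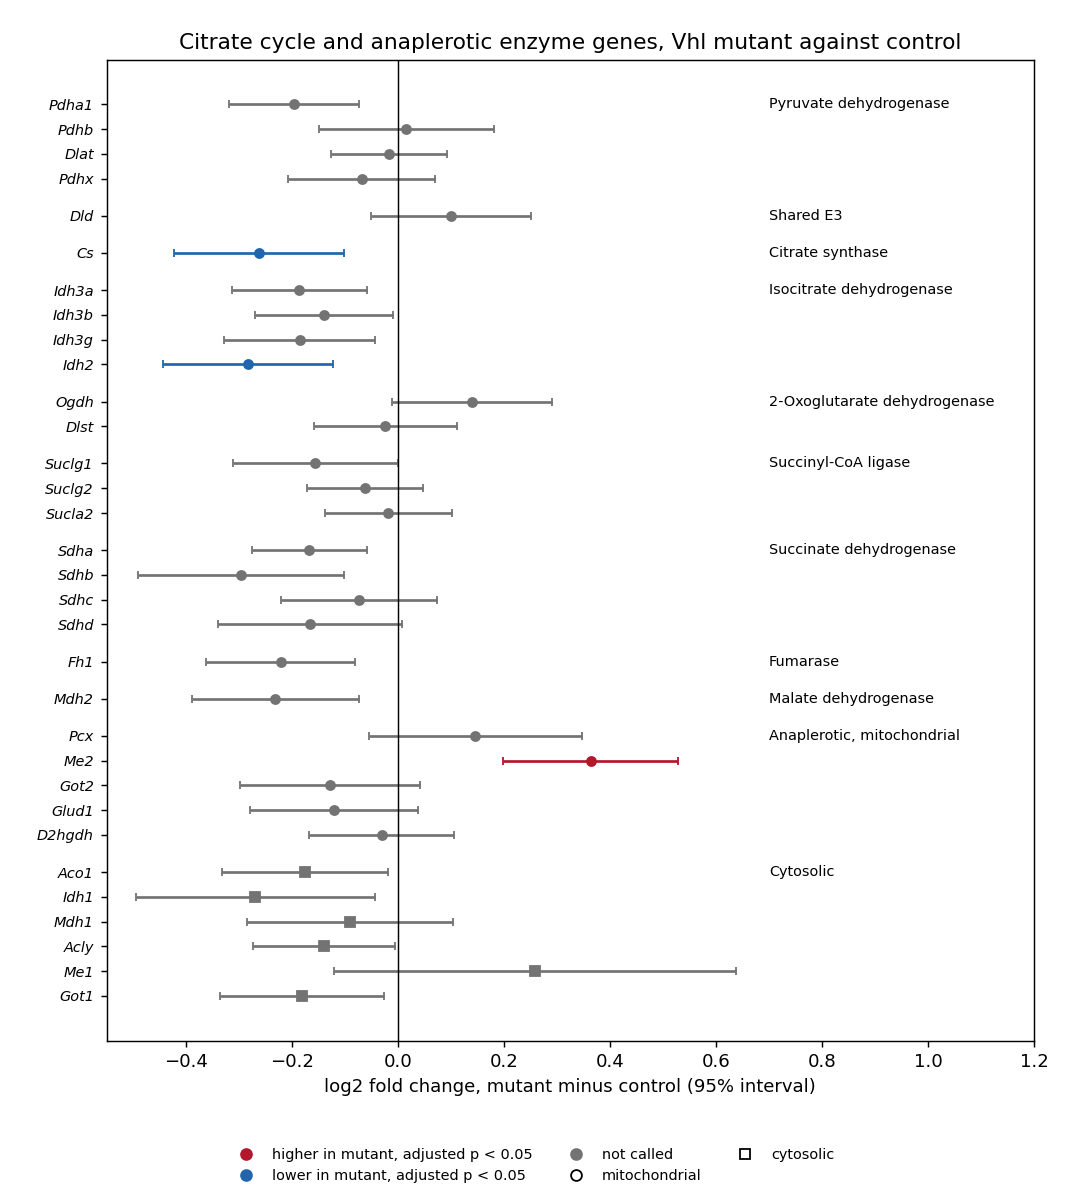
Log2 fold changes (mutant minus control, x axis) with 95% intervals from limma for the 32 genes, in rows by reaction step; circles are mitochondrial and squares cytosolic enzymes. Me2 (0.36) stands to the right of 0 in red, Idh2 (-0.28) and Cs (-0.26) to the left in blue, and most grey points of genes that were not called lie left of 0.

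None of the 4 genes specific to the pyruvate dehydrogenase complex, which converts pyruvate to acetyl-CoA, was called, and the groups were separate only for Pdha1. Pdha1 encodes the alpha subunit of the decarboxylase E1, the subunit that the Pdk kinases phosphorylate. It was at 4667, 4172, 4593 and 4436 normalised reads in mutants 1 to 4, against 5174, 5178, 4833 and 5288 in controls 1 to 4. The groups did not overlap, as was the case for 6.72% of all tested genes in this direction. The log2 fold change was -0.20 (SE 0.06), and the gene was not called (limma adjusted p = 0.0534). It was called in the fit without control 3 (adjusted p = 0.0465) and with scaling by a trimmed mean of M values (adjusted p = 0.0468). Pdha1 lies on chromosome X from 160122209 to 160138413 (mm10, minus strand) and shares 603 exonic bases with Map3k15 on the other strand, so its count is uncertain. When both libraries that nearly lack Xist were left out, the log2 fold change was -0.16 (adjusted p = 0.272).

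The partner subunit Pdhb had a log2 fold change of 0.02 (95% interval -0.15 to 0.18, adjusted p = 0.933). Dlat, the acetyltransferase core E2, was at -0.02 (-0.13 to 0.09), and Pdhx, which anchors E3 to that core, was at -0.07 (-0.21 to 0.07). Dld, the E3 dehydrogenase shared with the 2-oxoglutarate complex, was at 0.10 (-0.05 to 0.25). Across these 4 genes the intervals reach from -0.21 to 0.25 on the log2 scale, and changes of that size cannot be told from none. Summed over Pdha1, Pdhb, Dlat and Pdhx, the complex was at 13581 to 14620 normalised reads in mutants and 14148 to 15512 in controls, and the groups overlapped.

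On the steps that lead to 2-oxoglutarate, Cs and Idh2 fell in mutants, and the 3 genes of the NAD-dependent isocitrate dehydrogenase had estimates below 0 without a call. Cs, which encodes the enzyme that forms citrate, was at 10611, 10104, 8710 and 9562 normalised reads in mutants 1 to 4, against 10511, 12092, 12169 and 11958 in controls 1 to 4. Control 1 lay within the mutant range, and the other 3 controls lay above all mutants. The log2 fold change was -0.26 (SE 0.07, limma adjusted p = 0.0499), at the edge of the threshold. The call was lost in 6 of 8 fits with 1 library left out: the adjusted p was 0.0172 without control 1, 0.0337 without mutant 1 and up to 0.141 without mutant 4. It was also lost with scaling by a trimmed mean of M values (0.056), with limma-voom (0.051) and with no filter on low values (0.0613).

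Idh2 encodes the mitochondrial isocitrate dehydrogenase that uses NADP and can also run in reverse to form isocitrate. Its level was 12026, 11435, 9819 and 11041 normalised reads in mutants 1 to 4, against 12196, 13971, 13751 and 13956 in controls 1 to 4. The groups did not overlap, although mutant 1 and control 1 lay close together. The log2 fold change was -0.28 (SE 0.07, limma adjusted p = 0.0354). The call was kept without control 1 (0.0139) and without mutant 1 (0.0259) and was lost in each of the other 6 such fits, where the adjusted p reached 0.107. With the replicate numbers as a block, neither Idh2 (adjusted p = 0.101) nor Cs (0.136) was called.

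The NAD-dependent isocitrate dehydrogenase, the regulated enzyme of the forward cycle, consists of the subunits of Idh3a, Idh3b and Idh3g. Idh3a, the catalytic subunit, was at 2643, 2437, 2473 and 2561 normalised reads in mutants 1 to 4, against 2886, 2835, 2690 and 3106 in controls 1 to 4. The groups did not overlap, and the log2 fold change was -0.19 (limma adjusted p = 0.0763). The regulatory subunit Idh3g was at -0.19 (adjusted p = 0.112) and Idh3b at -0.14 (adjusted p = 0.181). The 3 subunits had similar estimates, and none was called. Idh3g lies on chromosome X, and without control 2 and mutant 2 its log2 fold change was -0.17 (adjusted p = 0.33).

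**Figure D2:**
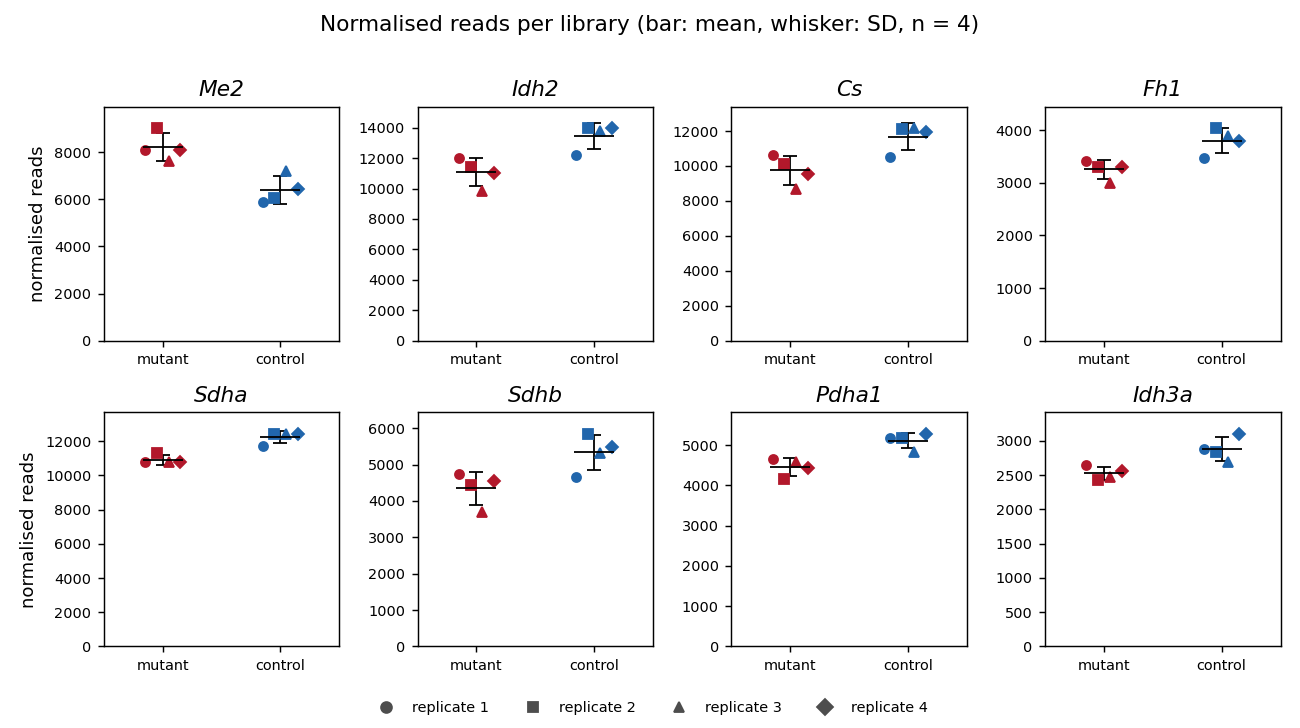
Normalised reads (y axis, from 0) of 8 member genes in each library, mutants on the left in red and controls on the right in blue; marker shape is the replicate number, the bar is the mean and the whisker the SD (n = 4). Me2 is higher in every mutant than in every control, Idh2, Fh1, Sdha, Pdha1 and Idh3a are lower in every mutant, and Cs and Sdhb overlap through control 1.

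Neither gene specific to the 2-oxoglutarate dehydrogenase complex, the next step, was called. Ogdh, its E1 decarboxylase and a main control point of the cycle, was at 7662 to 9270 normalised reads in mutants and 7165 to 8151 in controls. Its log2 fold change was 0.14 (SE 0.07, 95% interval -0.01 to 0.29, limma adjusted p = 0.252). Dlst, the succinyltransferase E2, was at -0.02 (-0.16 to 0.11, adjusted p = 0.868). The groups overlapped for both genes.

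Succinyl-CoA ligase makes ATP or GTP as it releases succinate. Suclg1, the alpha subunit of both forms, had a log2 fold change of -0.16 (adjusted p = 0.211), the GTP-forming beta subunit Suclg2 was at -0.06 (adjusted p = 0.495), and the ATP-forming beta subunit Sucla2 was at -0.02 (adjusted p = 0.888). None of the 3 was called. Suclg2 was at 6706 to 7119 normalised reads in mutants and 7010 to 7484 in controls, and Sucla2 at 3017 to 3272 in mutants and 3022 to 3356 in controls. Of the 50-base stretches of Suclg2 transcripts, 16.0% occur in another annotated gene, so reads could have been split between them.

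Succinate dehydrogenase is both an enzyme of the cycle and complex II of the respiratory chain. All 4 subunit genes had log2 fold changes below 0, and none was called. Sdha, the flavoprotein that oxidises succinate, was at 10779, 11300, 10758 and 10767 normalised reads in mutants 1 to 4, against 11693, 12430, 12440 and 12413 in controls 1 to 4. The groups did not overlap, and the spread within each was small. The log2 fold change was -0.17 (SE 0.05, limma adjusted p = 0.0636). Sdhb, the iron-sulfur subunit, was at 4733, 4429, 3688 and 4538 normalised reads in mutants 1 to 4 and 4670, 5850, 5330 and 5483 in controls 1 to 4. Here control 1 fell below mutant 1, and the log2 fold change of -0.30 (SE 0.09, adjusted p = 0.0657) had the lowest estimate of the 32 members. The membrane anchors Sdhd (-0.17, adjusted p = 0.236) and Sdhc (-0.07, adjusted p = 0.558) overlapped between the groups.

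The genes of the last steps, from fumarate to oxaloacetate, had estimates below 0 and were not called. Fh1, which encodes fumarase, was at 3417, 3302, 2996 and 3304 normalised reads in mutants 1 to 4, against 3470, 4039, 3888 and 3791 in controls 1 to 4. The groups did not overlap, with mutant 1 and control 1 close together, and the log2 fold change was -0.22 (SE 0.06, limma adjusted p = 0.0565). Mdh2, mitochondrial malate dehydrogenase, was at 9211, 8611, 7523 and 8187 normalised reads in mutants 1 to 4 and 8939, 10199, 10005 and 10172 in controls 1 to 4. Control 1 lay within the mutant range again, and the log2 fold change was -0.23 (SE 0.07, adjusted p = 0.0742). Without control 1, both were called (adjusted p = 0.0215 for Fh1 and 0.0307 for Mdh2).

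Counted along the whole mitochondrial cycle from Cs to Mdh2, with Dld, the calls were 2 of 17 genes lower (11.8%) and 0 higher, against 3.03% of all tested genes called lower and 3.41% of those with a mean of at least 1000. By the unadjusted p, 10 of the 17 lay lower (58.8%) and 0 higher, against 11.2% of all tested genes lower and 13.7% of those with a mean of at least 1000, and the median log2 fold change was -0.17. The 2 genes above 0 were Ogdh and Dld, of the 2-oxoglutarate complex.

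Among the other mitochondrial enzymes, which feed the cycle or draw on it, Me2 was the one gene called, and it rose. Me2 encodes the malic enzyme that converts malate to pyruvate in the matrix with NAD, a reaction that draws on the cycle. It lies on chromosome 18 from 73769903 to 73815449 (mm10, minus strand), and no annotated gene overlaps it. Its level was 8108, 9023, 7641 and 8093 normalised reads in mutants 1 to 4, against 5880, 6055, 7216 and 6429 in controls 1 to 4. Every mutant lay above every control, as in 8.54% of all tested genes in this direction. The log2 fold change was 0.36 (SE 0.08, limma adjusted p = 0.0116). The call held in each of the 8 fits with 1 library left out (adjusted p between 0.0037 and 0.0414) and with the replicate block (0.0452). It was lost without control 2 and mutant 2, where the log2 fold change was 0.29 (adjusted p = 0.101).

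The mitochondrial genes grouped here with Me2 were not called. Pcx, which encodes the pyruvate carboxylase that forms oxaloacetate, was at 2797 to 3566 normalised reads in mutants and 2409 to 3143 in controls, with a log2 fold change of 0.15 (95% interval -0.06 to 0.35, limma adjusted p = 0.379). Got2, the mitochondrial aspartate aminotransferase, was at -0.13 (-0.30 to 0.04), and Glud1, glutamate dehydrogenase, was at -0.12 (-0.28 to 0.04). D2hgdh, which oxidises D-2-hydroxyglutarate to 2-oxoglutarate, was at -0.03 (-0.17 to 0.11). In mutant 1, Glud1 stood at 7961 normalised reads, above 6680 to 6710 in the other 3 mutants and inside the control range of 7192 to 8161. Got2, Glud1 and D2hgdh share 16.8%, 6.49% and 17.8% of their 50-base stretches with other annotated genes, so their counts are less certain. The same holds for Me1 (22.9%, the largest share of the 32 genes) and Pdhb (10.9%), including the level and the ratio given for Me1 and the estimate given for Pdhb.

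Of the 6 cytosolic enzymes 0 were called. By the unadjusted p, with 0.05 as its threshold, 4 of 6 lay lower and 0 higher, where 11.2% of all tested genes lay lower and 12.0% higher. The medians were -0.16 for the 6 cytosolic and -0.13 for the 26 mitochondrial genes. Acly, which splits citrate to supply acetyl-CoA for lipid synthesis and histone acetylation, was at 11005 to 12285 normalised reads in mutants and 12010 to 13685 in controls (log2 fold change -0.14, limma adjusted p = 0.197). Aco1, the cytosolic aconitase that doubles as iron regulatory protein, was at -0.18 (adjusted p = 0.165), and Got1, the cytosolic aspartate aminotransferase, was at -0.18 (adjusted p = 0.149). Idh1, cytosolic and peroxisomal isocitrate dehydrogenase, was at -0.27 (SE 0.10, adjusted p = 0.144), with an SD of 350.5 normalised reads among controls. Mdh1, cytosolic malate dehydrogenase, was at -0.09 (adjusted p = 0.59). Me1, cytosolic malic enzyme, was the one above 0 (0.26, 95% interval -0.12 to 0.64, adjusted p = 0.407), with 249 to 318 normalised reads in mutants and 164 to 282 in controls.

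Ratios within a library compare isozymes free of library scaling. For 4 mitochondrial over cytosolic pairs and for Suclg2 over Sucla2, the log2 ratio was compared between groups by an exact permutation test, two-sided, that used all 70 relabellings, and p-values were adjusted over the 5 ratios. The smallest p this design allows is 0.0286. The Mdh2/Mdh1 ratio was -0.28, -0.19, -0.22 and -0.35 in mutants 1 to 4, against -0.07, -0.17, -0.04 and -0.19 in controls 1 to 4. All mutants lay below all controls, with mutant 2 and control 4 almost equal, and the mean difference was -0.14 (exact p = 0.0286, adjusted p = 0.143), which did not pass the adjustment. The Got2/Got1 ratio was 2.93, 2.91, 2.84 and 2.90 in mutants 1 to 4 and 2.84, 2.87, 2.84 and 2.82 in controls 1 to 4. That difference was 0.05 (exact permutation p = 0.0571, adjusted p = 0.143), and the groups overlapped through mutant 3.

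The remaining ratios differed by less than the spread between replicates. Idh2/Idh1 averaged 2.24 ± 0.18 in mutants and 2.25 ± 0.18 in controls (log2, SD, n = 4 each, exact permutation p = 0.857, adjusted p = 0.857). Me2/Me1 averaged 4.86 ± 0.27 in mutants and 4.76 ± 0.48 in controls (exact permutation p = 0.771, adjusted p = 0.857). Suclg2/Sucla2 averaged 1.12 ± 0.07 in mutants and 1.17 ± 0.08 in controls (exact permutation p = 0.457, adjusted p = 0.762). No ratio passed the adjustment, and 1 ratio alone at the smallest p could not have.

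**Figure D3:**
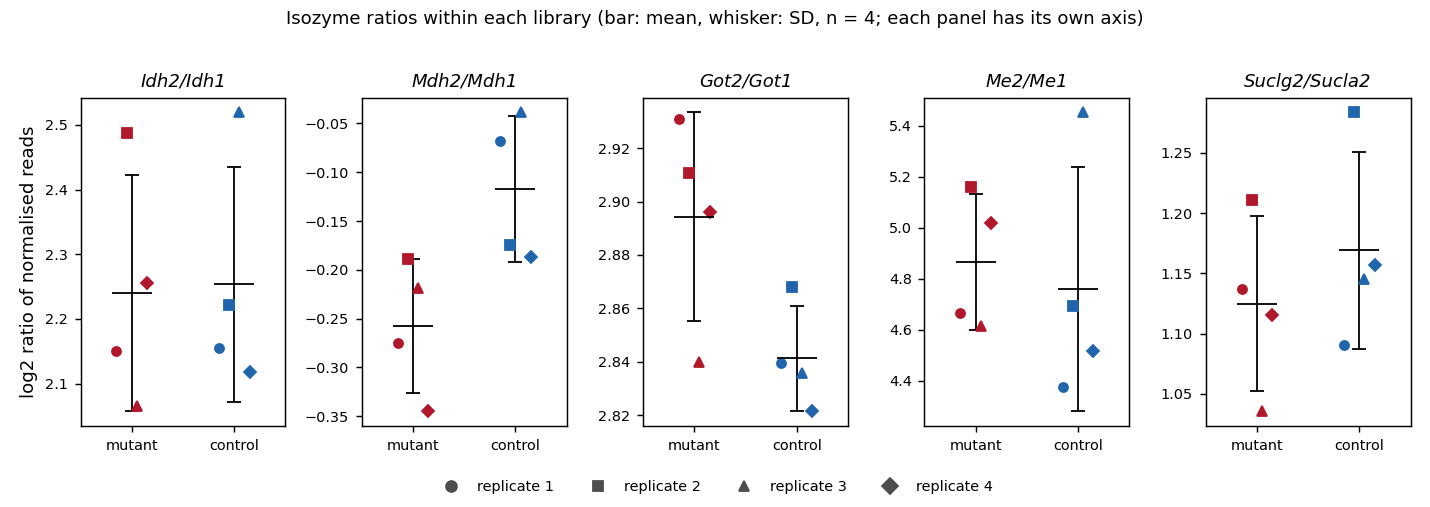
Log2 ratio of normalised reads of 2 isozyme genes in the same library (y axis, its own range in each panel), mutants on the left in red and controls on the right in blue; bar and whisker are mean and SD (n = 4). Mdh2/Mdh1 is lower in every mutant than in every control, and the groups overlap in the other 4 panels.

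Levels per kilobase of exon covered a wide range, with Me1, D2hgdh and Pdhx lowest and Idh2, Sdhd and Mdh1 highest in both groups. Idh2 was at 4281 ± 361 normalised reads per kilobase in mutants and 5204 ± 330 in controls (SD, n = 4 each). In mutants Sdhd (4300 ± 397) and Mdh1 (3908 ± 393) had SD ranges that overlapped that of Idh2 (SD, n = 4 each). Among controls Sdhd (4822 ± 377, SD, n = 4) followed Idh2, and their SD ranges overlapped. Me1 was lowest, at 73.4 ± 9.73 per kilobase in mutants and 62.3 ± 14.4 in controls (SD, n = 4 each). Per kilobase, Me2 exceeded Me1 15.5-fold in mutants and 14.4-fold in controls, and Idh2 exceeded Idh1 5.06-fold in mutants and 5.11-fold in controls. Mdh2 was the exception to a mitochondrial excess, at 0.603 of the Mdh1 level in mutants and 0.665 in controls. Within the pyruvate dehydrogenase complex, Pdhb was at 1461 ± 109 and Pdhx at 301 ± 17.9 per kilobase in mutants, against 1446 ± 120 and 316 ± 13.5 in controls (SD, n = 4 each). The per-kilobase values rest on the union of annotated exons, which can be longer than any single transcript.

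**Figure D4:**
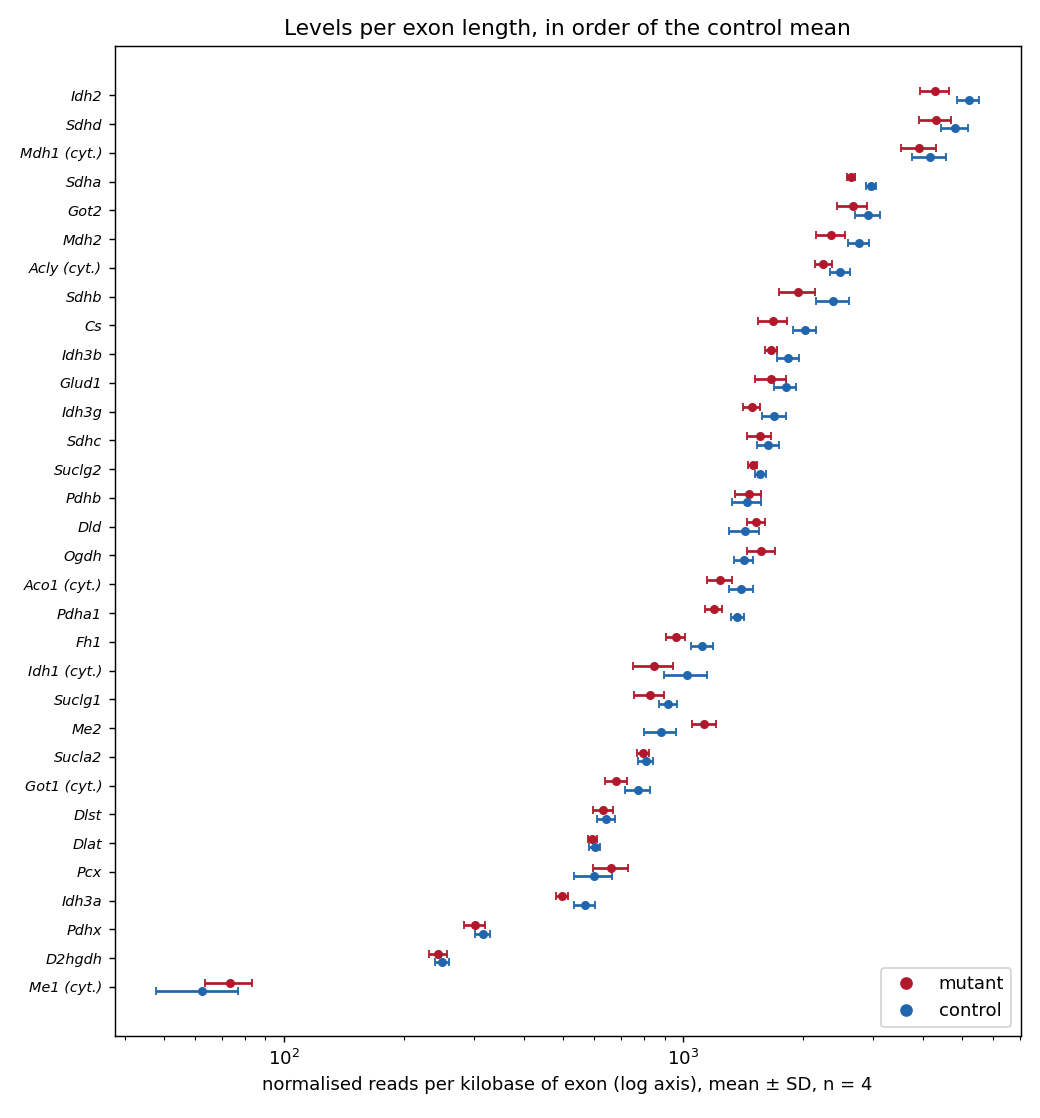
Normalised reads per kilobase of exon (x axis, log scale; mean ± SD, n = 4) for the 32 genes in order of the control mean, with mutants in red drawn above controls in blue. Me2 (1133 in mutants, 882 in controls) is shifted to the right in mutants, Idh2 and Cs to the left, and Me1 is lowest.

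In each group 1 library lay low across most of these genes. In mutant 3, 27 of the 32 genes lay below the mutant mean, with a median deviation of -0.12 on the log2 scale, and in control 1, 26 of 32 lay below the control mean, also with a median of -0.12. In the other libraries the median deviation was between 0.02 and 0.06. Over all tested genes it was between -0.01 and 0.02 in every library. Mutant 3 and control 1 also had the lowest sums of normalised reads over all genes, at 41531978 for mutant 3 and 40390348 for control 1, against 42705417 or more in the other mutants and 42179587 or more in the other controls. The part of this in the results was not tested. As a share of each library's normalised reads, which does not depend on the size factors, the 32 genes took 0.448%, 0.433%, 0.406% and 0.432% in mutants 1 to 4, against 0.451%, 0.482%, 0.463% and 0.485% in controls 1 to 4. Every mutant share lay below every control share, with mutant 1 and control 1 close together. The number of fallen members was 9 without control 1, 3 without mutant 1, 1 without control 3, and 0 without any other single library.

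**Figure D5:**
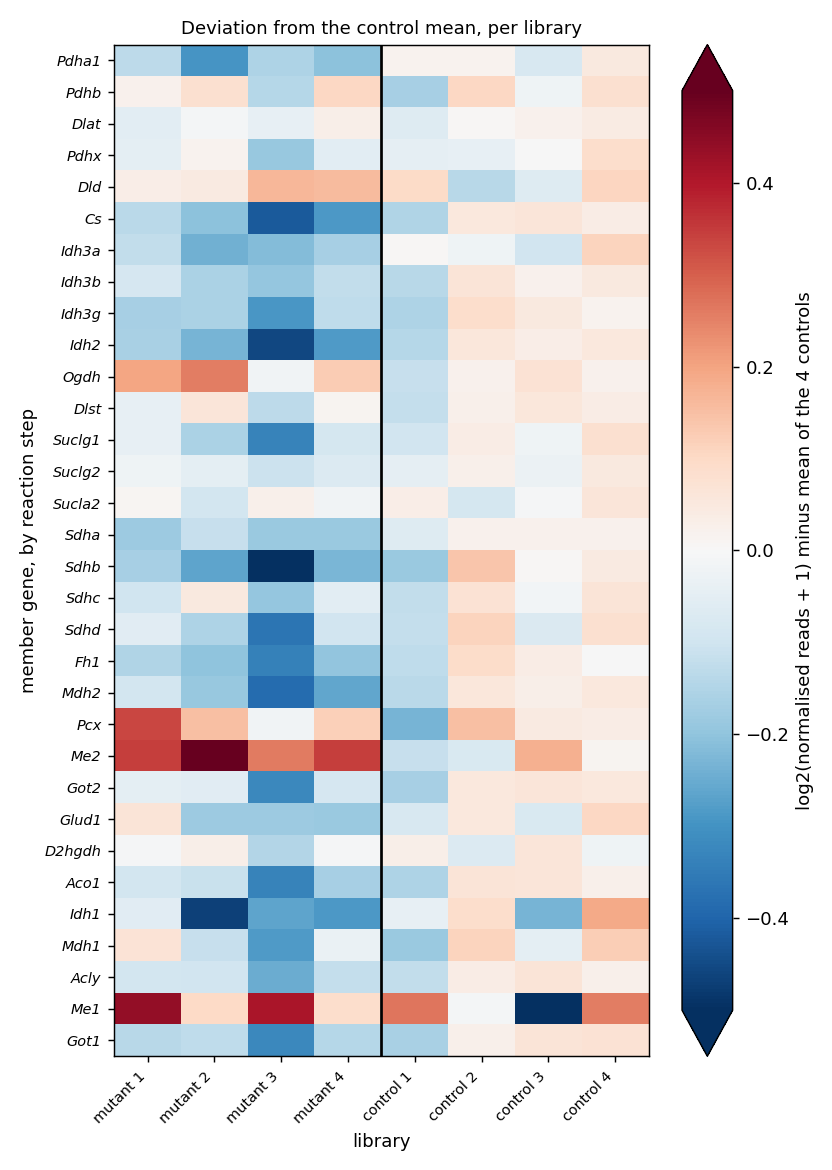
Log2(normalised reads + 1) of each member gene (rows, by reaction step) in each library (columns, mutants left of the line) minus the mean of the 4 controls; blue is lower and red higher, and the colours saturate at 0.5. All 4 mutants and control 1 are blue in most rows, with medians of -0.05, -0.11, -0.19 and -0.09 in mutants 1 to 4 and -0.12 in control 1. Me2 is red in all 4 mutants, and Ogdh and Pcx are red in mutants 1, 2 and 4.

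Since Cs and Idh2 were called lower and Ogdh was not, the stretches just upstream of these 3 genes are shown. Each is the 150 bases that end before the annotated transcript start, from RefSeq (GRCm38.p6), 5′ to 3′ on the gene's strand. Capitals mark ACGTG or GCGTG, cores of the hypoxia response element that hypoxia-inducible factor binds, or their reverse complements CACGT and CACGC. The Cs stretch is chr10:128337577-128337726 on the plus strand, the Idh2 stretch chr7:80115393-80115542 on the minus strand, and the Ogdh stretch chr11:6291483-6291632 on the plus strand.
Cs: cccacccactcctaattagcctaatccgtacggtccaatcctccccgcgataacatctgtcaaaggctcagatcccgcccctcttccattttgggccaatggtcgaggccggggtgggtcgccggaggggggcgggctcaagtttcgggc
Idh2: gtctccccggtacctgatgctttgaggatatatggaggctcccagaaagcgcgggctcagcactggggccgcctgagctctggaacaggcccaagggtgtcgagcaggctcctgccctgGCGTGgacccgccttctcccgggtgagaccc
Ogdh: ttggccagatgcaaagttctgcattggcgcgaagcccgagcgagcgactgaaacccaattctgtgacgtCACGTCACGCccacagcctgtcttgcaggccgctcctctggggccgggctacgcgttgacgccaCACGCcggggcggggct

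The Cs stretch holds neither core, the Idh2 stretch holds GCGTG, and the Ogdh stretch holds CACGT followed directly by CACGC, and a second CACGC. RefSeq windows from 250 bases before to 50 after the start were searched on both strands for 37 promoters of 29 members; Idh3a, Sdhc and Me2 were not matched. ACGTG occurred in 13 of the 37 (35.1%), against 19.6% of all 32851 promoters of the same length, and GCGTG in 22 (59.5%), against 32.4%. AAGGTCA, which estrogen-related receptors bind, occurred in 3 of 37 (8.11%), against 4.72%, and CACGTG, which contains ACGTG, in 4 (10.8%), against 7.15%. The palindromic motif of nuclear respiratory factor 1 occurred in 0 of 37, against 0.971% of all promoters. That share is too low for 37 windows to show a direction. Base composition was not matched, and some windows belong to the same gene. A match of letters is not a binding site, and the fallen gene Cs held neither core in its window.

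Genes that regulate the cycle or supply it were counted from a list of 49 neighbouring genes, chosen with earlier results of these data known. By limma, 4 of the 48 tested were higher in mutants, 3 were lower and 41 had no call, where 5.4% of all tested genes were called higher and 3.03% lower. These few calls lie fairly near that background. Pdk1, the kinase that inactivates pyruvate dehydrogenase, rose 4.68-fold, to 21804 ± 1025 normalised reads in mutants, against 4674 ± 464 in controls (SD, n = 4 each). Its paralog Pdk3 rose 1.19-fold (adjusted p = 0.0231), while Pdp2, a phosphatase that reactivates the complex, fell by 22.8% (adjusted p = 0.0202). Pdk3 and Pdp2 lost their calls in some fits with 1 library left out (adjusted p up to 0.0841 and 0.0754). Pdk3 lies on chromosome X, and its value without both libraries that nearly lack Xist is not given here. Lonp1, a protease of the mitochondrial matrix, rose 1.49-fold to 9297 ± 575 normalised reads in mutants, against 6247 ± 414 in controls (SD, n = 4 each, adjusted p = 0.000225), and Hk2, which phosphorylates glucose, rose 3.79-fold.

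The other fallen neighbours lie on routes into the cycle. Pcca, a subunit of the propionyl-CoA carboxylase that leads to succinyl-CoA, fell by 30.3%, to 387 ± 47.6 normalised reads in mutants, against 555 ± 56.5 in controls (SD, n = 4 each, limma adjusted p = 0.0104), and it shares 241 exonic bases with Ggact on the other strand. Oxct1, which transfers CoA from succinyl-CoA to ketone bodies, had a log2 fold change of -0.23 and fell to 8739 ± 376 normalised reads in mutants, against 10279 ± 438 in controls (SD, n = 4 each, adjusted p = 0.0229, and up to 0.0832 with 1 library left out), and it shares 467 exonic bases with BC037032 on the other strand. Pck2, mitochondrial phosphoenolpyruvate carboxykinase, was at 0.11 on the log2 scale (95% interval -0.02 to 0.24, adjusted p = 0.302). Regulators of mitochondrial genes showed no call: Tfam was at -0.06 (-0.16 to 0.05) and Nrf1 at 0.02 (-0.12 to 0.16), while Esrra had 895.7 ± 28.9 normalised reads in mutants and 896.2 ± 39.5 in controls (SD, n = 4 each).

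Markers of other kidney cells were present at varying levels. Summed podocyte markers ranged from 949 to 2303 normalised reads in mutants and from 1375 to 7252 in controls. Stromal markers ranged from 19762 to 40883 in mutants and from 23357 to 50873 in controls, and tubule markers from 3708 to 8793 in mutants and from 2080 to 7418 in controls, with 0 of 6 called in each. Endothelial markers were at 1611 to 2072 in mutants and 1214 to 2106 in controls, with 1 of 6 called higher (Plvap), and leukocyte markers at 539 to 877 in mutants and 480 to 936 in controls, with 0 of 6 called. Ureteric bud markers were at 2154 to 3392 in mutants and 1761 to 2889 in controls, with 0 of 5 called, and the 2 erythroid markers listed summed to 58.5 to 123 in mutants and 69.9 to 109.6 in controls. The ranges overlapped in every list, and their part in the results was not tested.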

How the data were processed

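The submitters' processing notes name STAR 2.5.3a, DESeq2 1.18.1 and mm10, without their roles; the read counter, the annotation and the strand setting were not found in them. The signal deposited for each library is a read count that the authors scaled by size factors. The same 8 factors, recycled down the genes, had been applied once more. Undoing both gave whole reads that rebuild the deposited mean for each of 20254 genes (relative tolerance 1e-09), and reads divided once were analysed. The authors' deposited log2 fold changes and adjusted p-values served as an alternative, and their deposited score was not used. Genes reaching 10 normalised reads in 4 or more libraries (15381) were compared on log2(value + 1) with limma 3.58.1 in R 4.3.3 (mean-variance trend, robust, no covariate) in 1 fit of all 8 libraries, which was tested on simulated data. p-values were two-sided and Benjamini-Hochberg adjusted over all genes. Positions, exon lengths and overlaps are from GENCODE M21 (GRCm38, the assembly also called mm10). By rule all 32 members are named, with every library's value where called or not overlapping, and neighbouring genes if called; Pck2, Tfam, Nrf1 and Esrra were picked after their values were seen. Members and lists were chosen with earlier results of these data known. At these depths, the spread between libraries limits precision more than counting does.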

Additional observations from a re-analysis of the deposited data

Results flagged for a closer look

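In groups of 4, a library was singled out where its gap to the nearest other took up more of the group's range than Dixon's 95% critical value for 4 samples, which chance gives in about 1 of 20 groups. Of 76 groups examined, 9 were singled out. Control 1 was low for Cs (10511 normalised reads, against 11958 to 12169 in the other controls), Idh2 (12196, against 13751 to 13971), Sdha (11693, against 12413 to 12440), Mdh2 (8939, against 10005 to 10199) and Got2 (12517, against 14538 to 14618). Mutant 3 was low for Got2 (11206, against 13217 to 13556 in the other mutants) and Got1 (1564, against 1775 to 1792). Mutant 2 was high for Sdha (11300, against 10758 to 10779), and mutant 1 was high for Glud1 (7961, against 6680 to 6710).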

How the results depend on the processing

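Me2 stayed higher in every fit run, and was called in all but the one that dropped control 2 with mutant 2. The number of fallen members, 2 with all libraries, was 0 with the deposited values as they stand, with the replicate block, and after dropping mutant 2 with either control 3 or control 2. It was 1 with limma-voom on recovered reads and with no filter on low values, 9 in the authors' deposited table, and 15 with quality weights, which were lowest for control 1, control 3 and mutant 3 (0.501, 0.513 and 0.639). With 1 library left out it ranged from 0 to 9. The number of risen members was 0 without control 2 and mutant 2 and 1 in all other fits. Of all genes, 831 were higher and 466 lower. These counts were 537 and 160 with the deposited values, 550 and 216 with the replicate block, 1622 and 1374 with quality weights, 522 and 221 without control 3 and mutant 2, and 466 and 171 without control 2 and mutant 2, and the authors' table has 810 lower. With 1 library left out, between 519 and 919 were higher and between 230 and 653 lower. Same-numbered libraries did not deviate together (correlations 0.213, -0.143, -0.144 and 0.0634 for numbers 1 to 4), and of the mutants only mutant 4 correlated best with its own number. Control 2 and mutant 2, which nearly lack Xist, do share a number. With so few libraries, these correlations cannot settle whether the numbers pair the libraries, and the labels do not say.

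Signs turned for 4 members and 2 ratios near 0. Without control 3 and mutant 2, Sucla2 was at 0.0036 and Pdhb at -0.012, and with quality weights D2hgdh was at 0.0032. With 1 library left out, Dlst ranged from -0.063 to 0.011, Sucla2 from -0.048 to 0.0060, Pdhb from -0.039 to 0.068, D2hgdh from -0.053 to 0.0070, Idh2/Idh1 from -0.096 to 0.074 and Me2/Me1 from -0.024 to 0.335. Me2/Me1 was -0.016 without control 2 and mutant 2. The causes were not tested. The planned edgeR and DESeq2 alternatives were not run, because the unit check required before a count model does not accept reads recovered from scaled values. Whole reads were nonetheless rebuilt for every gene, and limma-voom was run on those reads instead. With 1 library left out, no ratio can reach an adjusted p under 0.05.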
